A study of Homo sapiens with 8 samples.

Results

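ATP-binding cassette (ABC) transporters are membrane proteins that use ATP to move lipids, drugs, bile salts, peptides or metabolites across membranes, and the family holds 42 genes in the set described here. ABCA12, which loads glucosylceramide into the lamellar granules of the skin, was selected on its own rise after UCA1 knockdown, a measured value of this contrast. The other members were taken by name from the subfamilies A to G. Of the 42 members, 41 matched at least 1 probe of the array through the RefSeq accession of the probe, with 57 probes in all. Between sictrl and siUCA1, 22 of the 42 members could be tested, among 15454 genes tested.

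RNA of OAW42-R cells was measured on 8 one-color Agilent arrays. OAW42-R is a cisplatin-resistant derivative of the serous ovarian cancer line OAW42, obtained by repeated exposure to rising cisplatin concentrations, and it is the sole line here. On 4 arrays the cells had received a pool of nontargeting siRNAs (sictrl), and on 4 arrays a cocktail of siRNAs number 2 and number 4 against the long noncoding RNA UCA1 (siUCA1), each at a final 20 nM. The labels name no cisplatin treatment. The replicates are named A1, M2, A2 and A3 in both groups and come, per the study's methods, from independent experiments. The labels give 24 h from transfection to RNA extraction and the study's methods give a longer time, which could not be settled here.

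UCA1 itself fell by 5.04 log2 units (standard error, SE, 0.29, limma adjusted p = 0.000122), from 8.20 ± 0.49 (SD, n = 4) in sictrl to 3.16 ± 0.47 (SD, n = 4) in siUCA1. Values are log2 intensities relative to the 75th percentile of each array, so that 0 is the brightness at that percentile. Of the 9 epithelial and ovarian carcinoma markers, 7 were well above background on all 8 arrays (PAX8, EPCAM, CDH1 and the keratins), while WT1 and MUC16 were so on none. Of these, CDH1 fell by 0.81 (limma adjusted p = 0.0149). Of 10 markers of fibroblasts, leukocytes and endothelium, CD14 and VWF were well above background on all 8 arrays, and CD14 rose by 0.70 (limma adjusted p = 0.0478). COL1A1 passed on 2 sictrl and 3 siUCA1 arrays, PTPRC on 2 siUCA1 arrays and PECAM1 on 1 array of each group, and the other 5 passed on none. The part of these markers in the results below was not tested. The surface trend in brightness that the scanner software removed was 0.321 on sictrl A3 and 0.287 on siUCA1 A1, against 0.0737 to 0.0943 on the other 6 arrays. With 4 arrays per group, the spread between them sets the precision.

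Most of the family was either not detected or not called. The array software marks a spot as well above background by comparing it with the background of that array, and a probe was tested when it passed on all 4 arrays of at least 1 group. By this measure 14 members were not well above background on any array: ABCA6, ABCA8, ABCA10, ABCB1, ABCB4, ABCB11, ABCC8, ABCC11, ABCD2 and all 5 members of subfamily G. ABCA5, ABCA13, ABCC2, ABCC9 and ABCC12 passed on some arrays and were not tested. In bulk RNA, fewer cells that express a gene and less of its RNA per cell cannot be told apart.

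**Figure D1:**
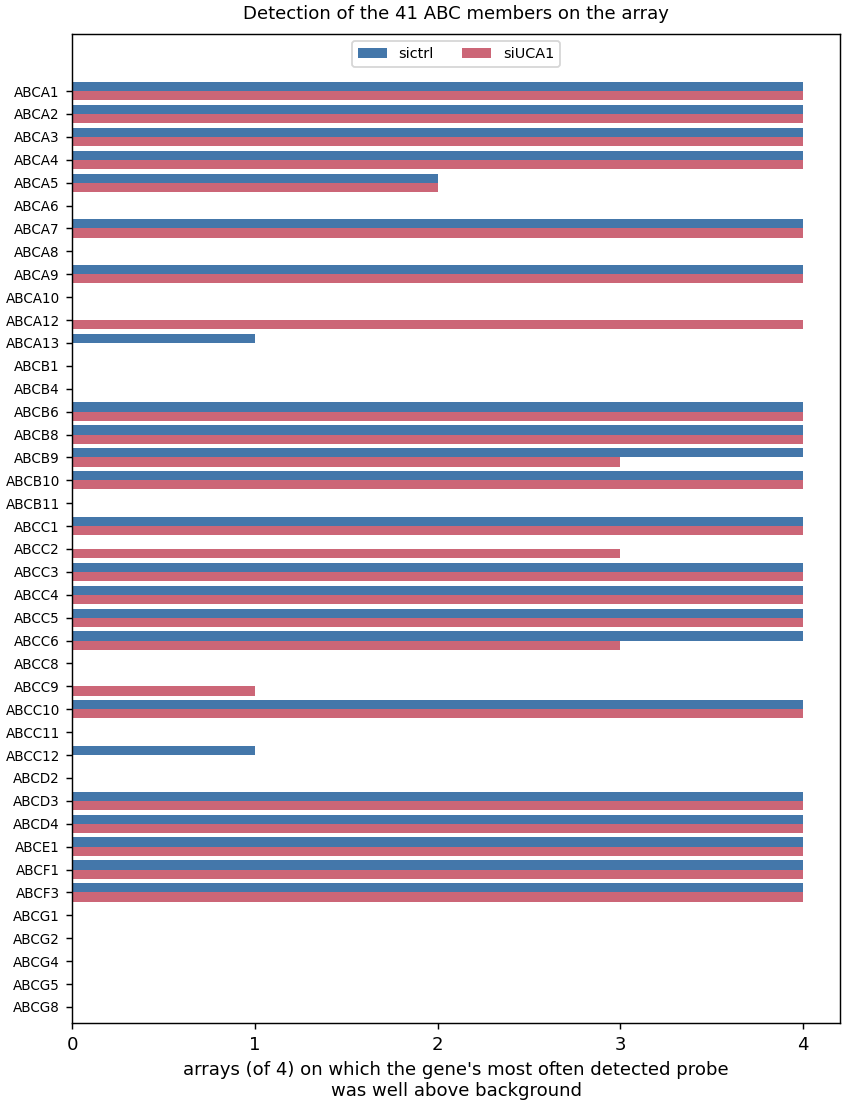
Arrays, of 4 per group, on which the most often detected probe of each member was well above background; blue bars are sictrl and red bars siUCA1, and a missing bar is 0 arrays. ABCA12 (0 of 4 against 4 of 4) and ABCC2 (0 of 4 against 3 of 4) differ most between the groups.

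Of the 22 members tested, 2 were called higher in siUCA1 (ABCA12 and ABCA1), which is 9.09%, against 5.72% of all genes tested. A single member, ABCC6, was called lower, which is 4.55% against 5.85% of all genes. It entered the test through sictrl alone, the group where it is higher, and nothing is read from that count either; with detection required on all 8 arrays it was 0. Called means an adjusted p under 0.05 in limma's fit over all genes, with Benjamini-Hochberg adjustment. Since ABCA12 was chosen for its rise, nothing is read from the count of higher members. Without it, 1 of the other 21 members was called higher (4.76%) and 1 lower (4.76%). The median log2 fold change of the 22 members was 0.01, with 11 above 0 and 11 below, and that of all genes tested was 0.03. The 4 values of siUCA1 all lay above those of sictrl for 2 members, and for 11.2% of all genes. They all lay below for 1 member, and for 9.67% of all genes. When every kept probe was tested on its own, 3 of the 30 kept probes of members were called, those of the same 3 genes, against 11.5% of all kept probes.

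**Figure D2:**
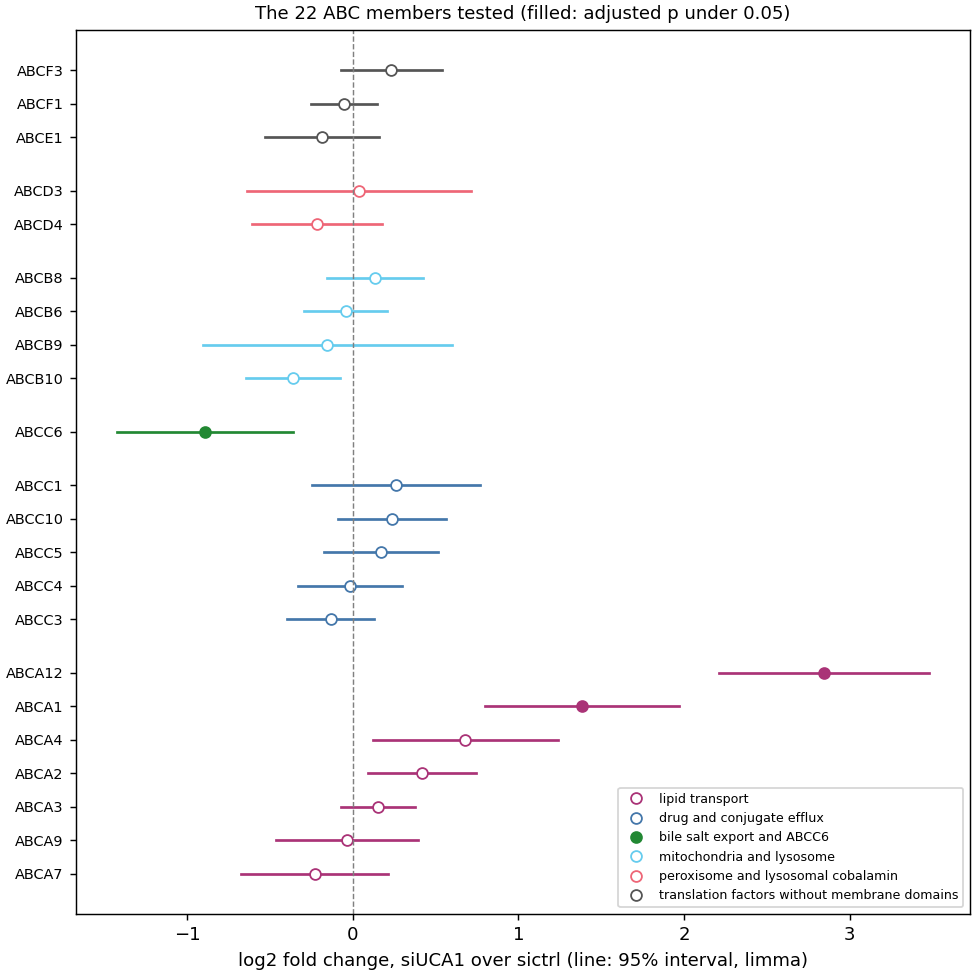
Log2 fold change (x axis, siUCA1 over sictrl) of the 22 members tested, grouped and colored by role, with the 95% interval of limma's fit as a line; filled points have an adjusted p under 0.05. ABCA12 at 2.85, ABCA1 at 1.38 and ABCC6 at -0.89 are filled. ABCA12 was selected on this contrast and was not well above background in sictrl.

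Among the 6 lipid transporters tested beside ABCA12, ABCA1 was called higher and none was called lower. Subfamily A proteins flip or load phospholipids, sterols and sphingolipids, and of the 17 members listed for lipid transport 7 were tested and 8 stayed at background on every array. Of the 6 tested beside ABCA12, 1 was called higher and none lower, against 5.72% and 5.85% of all genes tested. Their median log2 fold change was 0.28, against 0.03 over all genes, and their range -0.23 to 1.38. With ABCA12, whose value chose it, the median was 0.42 and the highest value 2.85.

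ABCA12 was read by 1 probe (NM_173076). On the sictrl arrays A1, M2, A2 and A3 it was at -4.26, -4.67, -4.31 and -3.55, not well above background on any of them. On the siUCA1 arrays it was at -2.02, -1.15, -1.14 and -1.09, well above background on each. The groups did not overlap, and siUCA1 A1 was the lowest of its group. The fitted log2 difference was 2.85 (SE 0.28). Because the sictrl values are at background, this difference has only a bound. On the background-subtracted signal as deposited, ABCA12 was at least 3.17-fold higher in siUCA1. Such a bound sets the mean of the bright group against, on each dim array, the higher of the probe itself and the dimmest signal that was well above background. A bound of this kind depends on the background subtraction of the deposited signal. Raising dim values to that lowest signal is the same calculation, with a log2 fold change of 1.66. With background correction by normexp the log2 fold change was 0.52, below that bound, and ABCA12 was not called.

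ABCA1, which moves cholesterol and phospholipid onto apolipoprotein A-I and is the classic target of the oxysterol receptors LXR, was read by a pair of probes for NM_005502. The kept probe was at -0.05, -0.39, -0.37 and -0.75 on the sictrl arrays A1, M2, A2 and A3. On the siUCA1 arrays in the same order it was at 1.75, 0.95, 0.60 and 0.68. All siUCA1 values lay above all sictrl values, with siUCA1 A1 the highest. ABCA1 rose by 1.38 log2 units (SE 0.26, limma adjusted p = 0.0126), a 2.61-fold increase. Of 21 alternative settings 1, the lack of a detection filter, ended this call (adjusted p = 0.126). The other probe was dim. It missed detection on every sictrl array, where it lay between -4.26 and -3.10. On the siUCA1 arrays it lay between -2.85 and -1.42 and passed detection on 3 of 4. Its groups did not overlap either, and it was at least 1.57-fold higher in siUCA1, with the array that did not pass counted at its measured value.

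**Figure D3:**
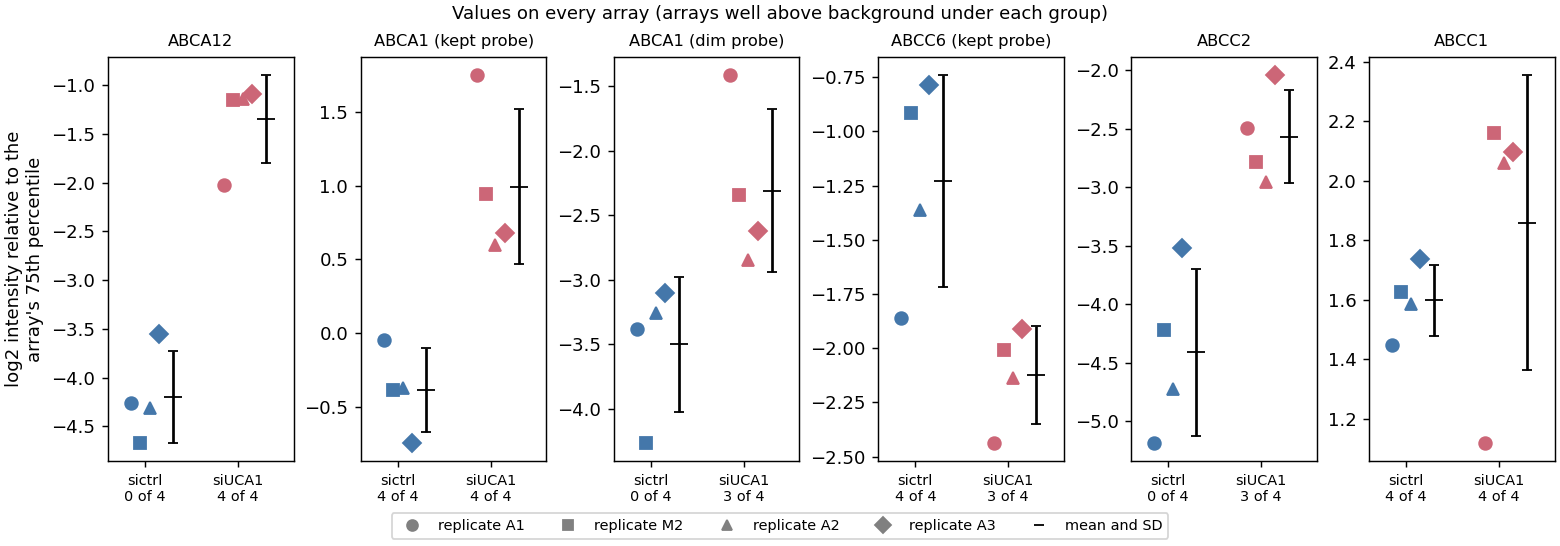
Log2 intensity relative to the 75th percentile of each array for the probes of ABCA12, ABCA1, ABCC6, ABCC2 and ABCC1; symbols are replicates, black bars the mean and SD (n = 4), and each panel has its own y axis. The arrays on which the probe was well above background are counted under each group. siUCA1 A1 lies apart for ABCA12 (-2.02) and ABCC1 (1.12).

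The start regions of ABCA12 and ABCA1, the 2 members called higher, and of ABCC2, which passed detection on 3 of 4 siUCA1 arrays and on no sictrl array and was not tested, are printed so that their base composition and motifs can be compared. Each is 300 bases, from 250 before to 50 after a RefSeq start (GRCh38.p14), written 5′ to 3′ in the direction of the gene. ABCA12 has starts at chr2:215138577-215138876 and chr2:215032037-215032336 (both minus strand), ABCA1 lies at chr9:104928106-104928405 (minus strand) and ABCC2 at chr10:99782390-99782689 (plus strand). Capitals mark the fixed letters of motifs found on either strand.
ABCA12, upstream start: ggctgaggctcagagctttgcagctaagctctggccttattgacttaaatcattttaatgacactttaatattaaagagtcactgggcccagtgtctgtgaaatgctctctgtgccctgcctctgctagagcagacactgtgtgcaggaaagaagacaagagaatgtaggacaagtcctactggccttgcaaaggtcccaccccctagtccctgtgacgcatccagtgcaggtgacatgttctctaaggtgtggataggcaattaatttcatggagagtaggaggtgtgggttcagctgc
ABCA12, downstream start: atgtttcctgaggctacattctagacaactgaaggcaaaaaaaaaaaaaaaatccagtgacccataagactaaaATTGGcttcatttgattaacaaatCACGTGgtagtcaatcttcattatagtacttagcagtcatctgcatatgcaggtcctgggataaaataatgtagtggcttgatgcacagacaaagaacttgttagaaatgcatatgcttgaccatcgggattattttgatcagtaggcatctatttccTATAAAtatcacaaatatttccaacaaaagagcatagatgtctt
ABCA1: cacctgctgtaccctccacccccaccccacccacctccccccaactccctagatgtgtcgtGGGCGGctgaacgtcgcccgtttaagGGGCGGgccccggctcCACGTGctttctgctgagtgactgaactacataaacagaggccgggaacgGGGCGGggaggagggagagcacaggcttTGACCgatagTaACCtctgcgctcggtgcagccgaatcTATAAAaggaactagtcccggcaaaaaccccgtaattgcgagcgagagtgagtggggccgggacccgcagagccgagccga
ABCC2: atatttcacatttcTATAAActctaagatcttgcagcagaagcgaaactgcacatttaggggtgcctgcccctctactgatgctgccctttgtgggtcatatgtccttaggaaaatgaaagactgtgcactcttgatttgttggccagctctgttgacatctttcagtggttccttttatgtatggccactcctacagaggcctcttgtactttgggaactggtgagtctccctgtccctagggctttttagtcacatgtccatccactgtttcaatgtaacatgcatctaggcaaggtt

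The GC box was searched for as GGGCGG and the TATA box as TATAAA. The E-box was searched for as CACGTG and the nuclear receptor half-site as AGGTCA. The AP-1 site was written as TGACTCA, and CCAAT was searched for by its letters. The longest motif was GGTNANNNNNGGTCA, a relaxed form of the repeat that LXR binds with its partner RXR, written down knowing that the ABCA1 promoter holds such a repeat. Each motif was searched on both strands, and none of the matches printed overlaps another. The ABCA1 window held 3 GC boxes, 1 E-box, 1 TATA box 31 bases before the start, and the relaxed repeat, which begins 69 bases before the start on the opposite strand. That repeat occurred in 0.239% of the 35116 start regions of all genes and in 1 of the 53 start regions of members, which cover 35 members. A GC box was found in 45.0%, a TATA box in 11.5%, CCAAT in 34.6%, an E-box in 7.26%, AGGTCA in 13.8% and TGACTCA in 4.95% of all start regions. In the 53 start regions of members the shares were 47.2% for a GC box, 15.1% for a TATA box, 22.6% for CCAAT, 17.0% for an E-box, 5.66% for AGGTCA and 3.77% for TGACTCA.

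The ABCA1 window was rich in G and C (62.7%) and held 23 CpG pairs. The upstream start of ABCA12 (48.7%) held 1 CpG pair and none of these motifs. The downstream start (34.7%) held 2 CpG pairs, an E-box, a CCAAT on the opposite strand and a TATAAA that begins at base 7 after the start. The ABCC2 window (45.0%) held 1 CpG pair and a TATAAA. Over all start regions the median was 58.7% G and C and 14.0 CpG pairs. A match is a run of letters and no measure of binding, and which ABCA12 start these cells use was not measured.

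The other 5 lipid transporters tested did not pass. ABCA4, the retinoid-lipid flippase of photoreceptors, was between -1.12 and -0.76 in sictrl and between -1.06 and 0.09 in siUCA1, a log2 difference of 0.68 (limma adjusted p = 0.114). Without siUCA1 A1, the lowest siUCA1 array, it was 0.94 (adjusted p = 0.00511), but ABCA4 was not called in 18 of 21 alternative settings. ABCA2, a sterol and sphingolipid transporter of the endosomal system, had 0.42 (adjusted p = 0.0996). The groups overlapped for both. ABCA3, which loads surfactant phospholipid into lamellar bodies of the lung, had 0.15 (adjusted p = 0.355). ABCA7, a phospholipid transporter close to ABCA1 in sequence, had -0.23 (adjusted p = 0.493).

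ABCA9 had a log2 difference of -0.04 (adjusted p = 0.930) and lay between 4.32 and 5.12 over the 8 arrays. In the RefSeq table ABCA8, ABCA9, ABCA6, ABCA10 and ABCA5 follow each other with no other protein-coding gene between them. Of these neighbours, ABCA9 was well above background on all 8 arrays, ABCA5 on 2 arrays of each group, and the other 3 on none. ABCA5 lay between -2.64 and -2.49 in sictrl and between -2.92 and -1.65 in siUCA1, with overlap. ABCA13 passed on sictrl A1 alone, at -0.08 there and between -4.22 and -2.26 on the other 7 arrays. ABCG1, the partner of ABCA1 in cholesterol efflux and also an LXR target, was between -4.34 and -3.14 over the 8 arrays and not well above background on any.

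Genes of sterol efflux and LXR signaling that are no transporters of the family were read beside ABCA1. Of 13 listed, 12 were tested, 3 were called higher (25.0%) and none lower, against 5.72% and 5.85% of all genes. Their median log2 fold change was 0.41, with 10 of 12 above 0 (83.3%), against 0.03 and 54.2% over all genes. The list was drawn up with earlier results known, so these shares describe it and test nothing. NR1H3, which encodes LXR alpha, was at 1.73, 1.91, 2.00 and 2.30 in sictrl and at 2.70, 2.67, 2.66 and 2.51 in siUCA1. It rose by 0.65 (SE 0.13, limma adjusted p = 0.0158), with no overlap. MYLIP, the LXR target that marks the LDL receptor for degradation, was between 1.74 and 3.10 in sictrl and between 4.05 and 4.72 in siUCA1. It rose by 1.71 (SE 0.31, limma adjusted p = 0.0119). NPC1, which exports cholesterol from lysosomes, rose by 0.47 (SE 0.10, limma adjusted p = 0.0190). SREBF1, another LXR target, had 0.01 (adjusted p = 0.974), NR1H2, which encodes LXR beta, 0.50 (adjusted p = 0.0727), and SCARB1 0.36 (adjusted p = 0.100). The call of NR1H3 was lost in 6 of 21 alternative settings and that of NPC1 in 7, with the direction kept in each. MYLIP lost its call in 1, without the detection filter.

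Genes around the cargo of ABCA12 moved in both directions. Of 19 genes of ceramide and epidermal lipid metabolism, 12 were tested, 2 were called higher and 2 lower (16.7% each, against 5.72% and 5.85% of all genes), and 5 were not well above background on any array. Their median log2 fold change was -0.005, with 6 of 12 above 0. This list too was drawn up with earlier results known. UGCG, the enzyme that makes glucosylceramide, was between 2.78 and 3.32 in sictrl and between 3.65 and 4.17 in siUCA1. It rose by 0.93 (SE 0.16, limma adjusted p = 0.00928). CERS4, a ceramide synthase, rose by 0.41 (limma adjusted p = 0.0265), and CERS6, another, fell by 0.52 (limma adjusted p = 0.0301). PPARD, a nuclear receptor for fatty acids, fell by 0.84 (SE 0.12, limma adjusted p = 0.00535), from between 1.59 and 1.74 to between 0.66 and 1.15. The UGCG call was lost in 3 of 21 alternative settings and the PPARD call in 1. The CERS4 call was lost in 9 of 21 alternative settings and the CERS6 call in 12, where the mean of its probes gave CERS6 -0.19 (adjusted p = 0.414). CERS3, the synthase of very long epidermal ceramides, had -0.12 (adjusted p = 0.631). The 5 genes not detected were ELOVL4, ALOX12B, ALOXE3, CYP4F22 and PNPLA1, which act in the making of the skin barrier.

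**Figure D4:**
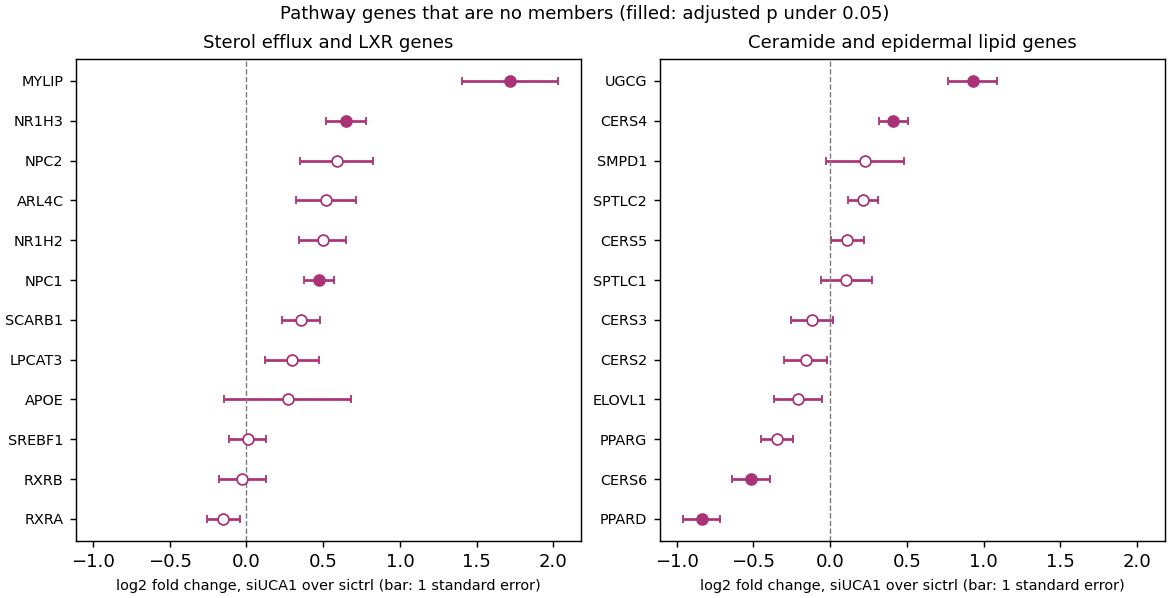
Log2 fold change (siUCA1 over sictrl) of the tested sterol efflux and LXR genes (left) and ceramide and epidermal lipid genes (right), with 1 standard error; filled points have an adjusted p under 0.05. MYLIP (1.71), NR1H3 (0.65), NPC1 (0.47), UGCG (0.93) and CERS4 (0.41) are filled on the right of 0, and CERS6 (-0.52) and PPARD (-0.84) on the left.

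The transporters of drugs and drug conjugates, which carry anthracyclines, taxanes or glutathione conjugates out of cells, gave no call. Of the 10 listed, 5 were tested, a number in which no call is near the background (5.72% of all genes higher and 5.85% lower), and their log2 fold changes lay between -0.13 and 0.26. ABCB1 (P-glycoprotein) had 2 probes, between -5.42 and -3.10 over the 8 arrays, and ABCG2 (the breast cancer resistance protein) had 1, between -5.22 and -3.59. None of these 3 probes was well above background on any array, so that a change of either gene at this level was not measurable.

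ABCC1 (MRP1), which exports glutathione conjugates, was at 1.45, 1.63, 1.58 and 1.74 on the sictrl arrays A1, M2, A2 and A3. On the siUCA1 arrays it was at 1.12, 2.16, 2.06 and 2.10. Of the siUCA1 arrays, 3 lay above all sictrl arrays, and siUCA1 A1 lay below all of them. The log2 fold change was 0.26 (SE 0.22, 95% interval -0.25 to 0.77, limma adjusted p = 0.499). ABCC1 was not called in 18 of 21 alternative settings. Leaving out any single array other than siUCA1 A1 gave 0.16 to 0.31, with no call. Without siUCA1 A1 it was 0.51 (adjusted p = 0.0153). With arrays weighted by quality, where 4814 of 15454 genes were called, it was 0.47 (adjusted p = 0.0175).

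ABCC2 (MRP2), the export pump for conjugates at the apical membrane and a carrier studied for platinum-glutathione complexes, was read by 1 dim probe (NM_000392). It was at -5.19, -4.22, -4.72 and -3.52 in sictrl, not well above background on any array. In siUCA1 it was at -2.50, -2.79, -2.95 and -2.04, well above background on 3 of 4. The groups did not overlap, and ABCC2 was at least 1.36-fold higher in siUCA1, a figure that counts siUCA1 A2, which did not pass, at its measured value. It was left out of the test over all genes because siUCA1 A2 did not pass. Without the detection filter it was not called (limma adjusted p = 0.117). Leaving out siUCA1 A2 would bring it into the test through its high group alone, so no test is given from there.

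ABCC3 (MRP3), a basolateral conjugate pump, was read by probes for NM_001144070 and NM_003786 that differed in sign. The first was at 0.59, 0.58, 0.58 and 0.42 in sictrl and at 0.27, 0.27, 0.42 and 0.68 in siUCA1, a log2 difference of -0.13 (limma adjusted p = 0.498). The second was at 0.25, 0.18, 0.05 and 0.92 in sictrl and at 0.40, 0.34, 0.41 and 1.08 in siUCA1, with 0.21 (adjusted p = 0.604 over all kept probes). The groups overlapped for both and neither was called, although the second was higher in siUCA1 for each of the 4 replicate names.

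ABCC4 (MRP4), an exporter of cyclic nucleotides and nucleotide analogs, was at -1.23, -0.77, -0.86 and -0.61 in sictrl and at -0.86, -0.85, -1.01 and -0.80 in siUCA1. Its log2 fold change was -0.01 (95% interval -0.33 to 0.30, limma adjusted p = 0.960), and its sign turned in 6 of 21 alternative settings. ABCC5 (MRP5), another nucleotide exporter, had 0.17, -0.10 and 0.05 for its 3 probes, none called. ABCC10 (MRP7), a taxane carrier, had 0.23 (adjusted p = 0.333) for its brighter probe. Its other probe had 0.52 (adjusted p = 0.0844 over all kept probes), with every siUCA1 array above every sictrl array. ABCC11 was not well above background on any array, and its neighbour ABCC12 passed on sictrl A2 alone.

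Among 10 regulators and membrane scaffolds of the efflux pumps, 7 were tested and none was called, which is also near that background. AHR, the dioxin receptor that induces ABCG2, had a fitted difference of 1.20 (limma adjusted p = 0.0720). Its kept probe entered the test through siUCA1 alone, being well above background on 1 of 4 sictrl arrays, so the size of the difference is not settled. The xenobiotic receptors NR1I2 and NR1I3, which induce ABCB1 and ABCC2 in the liver, were not well above background on any array.

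ABCC6, a transporter of liver and kidney that drives ATP release from cells and whose loss causes pseudoxanthoma elasticum, was the member called lower. The kept probe (NM_001079528) was at -1.86, -0.91, -1.36 and -0.78 in sictrl, well above background on each. In siUCA1 it was at -2.44, -2.01, -2.14 and -1.91, well above background on 3 of 4. The groups did not overlap, although the lowest sictrl value was close to the highest siUCA1 value. Because ABCC6 entered the test only through sictrl, its higher group, the fitted difference is given as a description. It was -0.89 log2 units (SE 0.23, limma adjusted p = 0.0424). With detection required on all 8 arrays it was not tested, and without a detection filter it was not called (adjusted p = 0.306). The call was lost in 12 of 20 alternative settings, among them 7 of the 8 that leave out 1 array. The other 3 ABCC6 probes were well above background on at most 1 array. The genome holds partial copies of ABCC6, and whether the probes also read these was not tested. ABCC6 lies next to ABCC1 in the RefSeq table. ABCB11, the bile salt export pump, and the potassium channel subunit ABCC8 were not detected, and its relative ABCC9 passed on siUCA1 A2 alone, at -0.31 against -5.26 to -3.91 on the other 7 arrays.

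The transporters of organelles gave no call. ABCB10, a mitochondrial protein of heme synthesis, was between 1.23 and 1.63 in sictrl and between 0.85 and 1.27 in siUCA1. Its log2 difference was -0.36 (limma adjusted p = 0.100). It was called in 1 of 21 alternative settings, with arrays weighted by quality (-0.44, adjusted p = 0.0156), where 4814 of 15454 genes were called. Its other probe had -0.32 (adjusted p = 0.148 over all kept probes), and the groups overlapped for both. ABCB6, a porphyrin transporter, had -0.04, ABCB8, a mitochondrial transporter, 0.13, and ABCB9, a lysosomal peptide carrier, -0.16. ABCD3, which brings branched fatty acids into peroxisomes, had 0.04 and ABCD4, which frees cobalamin from lysosomes, -0.22. All 7 partners in peroxisomes and cobalamin handling were tested and none was called, against the same 5.72% and 5.85% of all genes.

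ABCE1 and the F subfamily have the ATP-binding domains but no membrane domain, and act on ribosomes. ABCE1, the factor that splits ribosomes after termination, had -0.19 (limma adjusted p = 0.469) and its other probe -0.29 (adjusted p = 0.140 over all kept probes). ABCF1, a partner of the initiation factor eIF2, had -0.05 (adjusted p = 0.749) and ABCF3 0.23 (adjusted p = 0.296). ABCF2 matched no probe. An array probe for NM_005692 is named ABCF2-H2BK1 in the RefSeq table and had -0.06 (adjusted p = 0.741). Of 9 genes of ribosome recycling and rescue, 8 were tested and none was called, again near the share of all genes called (5.72% and 5.85%).

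**Figure D5:**
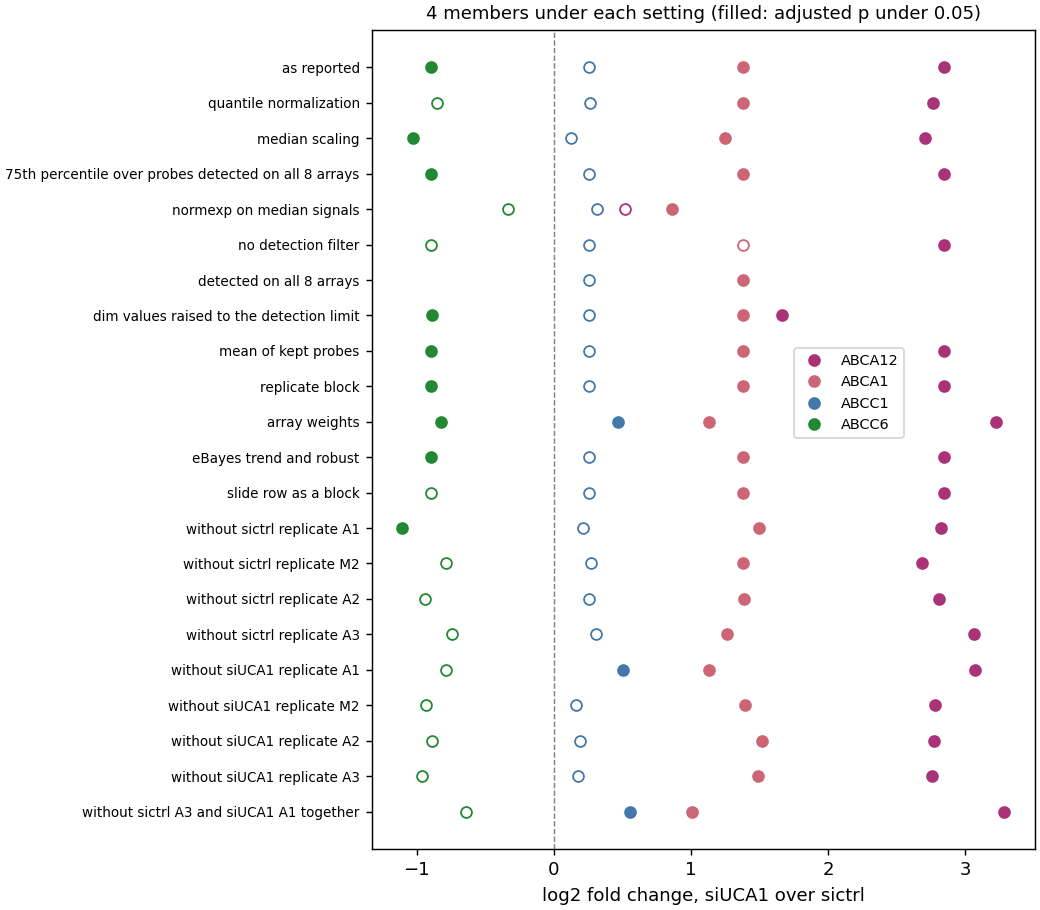
Log2 fold change of ABCA12, ABCA1, ABCC1 and ABCC6 as reported and under each alternative setting; filled points have an adjusted p under 0.05 and a missing point means that the member was not tested there. ABCA1 stays between 0.86 and 1.52, ABCA12 drops to 0.52 with normexp, ABCC6 is open in 12 of 20 alternatives, and ABCC1 is filled in 3 of 21.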

How the data were processed

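RNA of OAW42-R cells on 8 one-color Agilent arrays, 4 sictrl and 4 siUCA1, was re-analysed. Samples were grouped by their labels. The authors deposited each array's Feature Extraction output (version 10.7.3.1 per the submitters' processing notes), whose processed signal is a background-subtracted and surface-detrended intensity, not normalized between arrays. The flags for spots well above background, deposited in the same files, were used as given. A table of the whole series held the same processed signal (largest relative difference 0) and was not used further. The study's methods name limma with Benjamini-Hochberg correction and no normalization.

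From the deposited intensity, log2 values minus the 75th percentile of each array's non-control spots were computed, without outlier spots (76 to 132 per array) and with spots of 1 probe averaged. A probe entered when every array of sictrl, or every array of siUCA1, showed it well above background. This left 19045 of 58201 probes, and the brightest of these stood for its gene. Probes were named by accession through the RefSeq table of GRCh38.p14. Groups were compared with lmFit and eBayes of limma 3.58.1 under R 4.3.3, and an adjusted p under 0.05 is a call. Of 15454 genes, 884 were called higher and 904 lower, and 4264 had an unadjusted p under 0.05. The fit was tested on simulated data before use. Figures were drawn with matplotlib 3.10.9 in Python 3.11.15, and sequence windows were read with pandas 2.3.3.

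The members, role lists, pathway lists and markers were chosen with earlier results of these data known. Named with values are ABCA12, members called in either fit, ABCB1, ABCC1, ABCC2, ABCC3, ABCC4, ABCG2, ABCA1 and ABCG1, and pathway genes that were called. Outside that rule, array ranges and alternative settings are given for ABCA4 and ABCB10. Array values are also given for ABCA5, ABCA9, ABCA13 and ABCC9. The remaining members are given by detection and fold change, apart from arrays flagged for a closer look. Further genes were chosen after their values were seen: NR1H2, SREBF1, SCARB1, CERS3, AHR, NR1I2, NR1I3 and the undetected epidermal genes, and the markers CDH1 and CD14. Alternatives were quantile normalization, median scaling, a percentile over detected probes, normexp with an offset of 50, no filter, detection on all 8 arrays, a detection-limit floor under dim values, the mean of kept probes, a replicate block, array weights, eBayes with trend and robust settings, the slide row as a block, and each array left out. Leaving out sictrl A3 and siUCA1 A1 together was added after seeing the data. Labels do not say how replicates relate beyond their names.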

Additional observations from a re-analysis of the deposited data

Results flagged for a closer look

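For every member probe well above background on at least 1 array, the array farthest from the other 3 of its group was compared with the range of all 4. The measure is the array's distance from its nearest neighbour as a share of that range. In 10 of 76 such sets it exceeded Dixon's limit, a larger share than the about 5% of sets in which this happens by chance. What set these arrays apart was not tested. siUCA1 A1 was the distant array in 4 of these, sictrl A3 and siUCA1 A3 in 2 each, and siUCA1 A2 and sictrl A2 in 1 each.

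On siUCA1 A1, ABCA12 was at -2.02 against -1.15 to -1.09 on the other siUCA1 arrays (share of range 0.937) and ABCC1 at 1.12 against 2.06 to 2.16 (0.904). The dimmer ABCB8 probe was at -0.39 there against 0.34 to 0.45 (0.863). The dimmer ABCC10 probe was at -0.68 against -1.39 to -1.36 (0.947), on the far side from sictrl.

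On siUCA1 A3, the ABCC3 probe for NM_003786 was at 1.08 against 0.34 to 0.41 (0.905) and the dimmer ABCD3 probe at -0.29 against -0.92 to -0.83 (0.855). On siUCA1 A2, ABCA2 was at -1.22 against -0.88 to -0.86 (0.931). On sictrl A3, the ABCC3 probe for NM_001144070 was at 0.42 against 0.58 to 0.59 (0.937) and the dimmer ABCE1 probe at 0.23 against 0.59 to 0.62 (0.901). On sictrl A2, ABCC12 was at -2.87 against -5.21 to -4.92 (0.876).

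Outside the tested probes, a pair of probes missed detection on every sictrl array and passed on 3 of 4 siUCA1 arrays: the dim ABCA1 probe (at least 1.57-fold higher in siUCA1) and ABCC2 (at least 1.36-fold). Both values count the siUCA1 array that did not pass at its measured value.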

How the results depend on the processing

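ABCA1 was called in 20 of 21 alternatives (log2 fold change 0.86 to 1.52) and not without the detection filter (adjusted p = 0.126), and ABCC6 in 8 of 20 (-1.10 to -0.34). ABCA12, chosen on this contrast, was lowest with normexp (0.52, not called). The count of genes called, 1788 as reported, was 410 with median scaling, 380 with normexp, 76 without the filter (of 47753 genes), 4814 with array weights and 3879 without sictrl A3 and siUCA1 A1, and 760 to 2292 with 1 array left out, fewest without sictrl A2 and most without siUCA1 A1. Median scaling moved the median of all genes to -0.11 and the share of calls that were higher from 49.4% to 18.0%. The shares were 39.5% with normexp and 39.5% without the filter. Members called higher were 1 with normexp, without the filter and with detection on all 8 arrays (where ABCA12 was not tested), and 4 with array weights and without both arrays. The number was 2 to 4 with 1 array left out, highest without siUCA1 A1. In each of these 3 settings with 4, ABCA4 and ABCC1 joined ABCA12 and ABCA1, with 22 members tested. Of all genes, 2553 of 15454 were called higher with array weights, 2066 of 15990 without both arrays and 1027 of 15631 without siUCA1 A1. Genes called higher were 150 with normexp, 30 of 47753 without the filter and 904 of 14144 with detection on all 8 arrays. With 1 array left out they were 358 to 1260. Members called lower were 0 with quantile normalization, normexp, no filter, the slide row as a block, detection on all 8 arrays, and without both arrays, 2 with array weights (ABCB10 and ABCC6), and 0 to 1 with 1 array left out. Of all genes, 2261 were called lower with array weights, 955 with quantile normalization, 230 with normexp and 46 without the filter. Genes called lower were 675 with the slide row as a block, 834 with detection on all 8 arrays and 1813 without both arrays. With 1 array left out they were 394 to 1265. ABCC4 turned positive with quantile normalization (0.016), normexp (0.030), without both arrays (0.066) and with 1 array left out (-0.14 to 0.072, highest without sictrl A3). ABCC3 turned positive with normexp (0.18) and the mean of its probes (0.038). Arrays of the same replicate name correlated in their deviations at 0.038 to 0.278. Of the siUCA1 arrays, 3 of 4 correlated best with the sictrl array of their own name. Since the labels do not say that a name marks a shared experiment, the main fit left the names unpaired. These correlations do not exclude a pairing. With the replicate block 1727 genes were called, and 2 members higher and 1 lower, as without it. Among the called members and pathway genes, the block ended that of CERS6 (-0.52, adjusted p = 0.0505). The cause of each of these shifts was not tested. Weak signal limits what can be read of the members not well above background.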
